A study of Mus musculus with 12 samples.

Results

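The genes described here are 10 genes that mark pericytes and other mural cells, the contractile and supporting cells of the vessel wall: Kcnj8, Abcc9, Rgs5, Pdgfrb, Foxs1, Gja4, Higd1b, Gucy1a1, Gucy1b1 and Anpep. They were found by symbol or synonym among the 17711 genes named on the array, and they have 17 probes, of which 14 were bright enough to be kept; each of the 10 genes kept at least 1 probe. They were chosen by their high signals in radial glia, with earlier results of these arrays known, so every comparison with radial glia is given as a description, without a test of the 10 genes. The remaining comparisons, which hold no radial glia array, were tested.

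RNA was measured on Illumina MouseWG-6 bead arrays, 3 independent biological replicates for each of 4 groups, all from C57Bl/6 mice. Ependymal cells, the ciliated lining of the brain ventricles and of the spinal central canal, came from adults, either from the wall of the lateral ventricle (LVW) or from the spinal cord (SC), and were sorted as CD133+ CD24+ CD45- CD34- cells. Radial glia, which are neural stem cells found in embryos, were isolated from the forebrain at embryonic day 14.5 as CD133+ CD24- CD45- CD34- cells. Neurospheres were grown in culture from adult SC ependymal cells and were not sorted. The gate required CD133 and removed cells carrying CD45, an antigen of leukocytes, and CD34, an antigen of endothelial and blood-forming cells. Whether pericytes passed it was not tested.

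Pericytes sit on the outside of brain capillaries inside the shared basement membrane, and they take part in blood flow control and in the blood-brain barrier. Endothelial cells draw them to new vessels with the growth factor PDGF-B, which pericytes sense through the receptor PDGFRB. In the embryonic forebrain, vessels with their pericytes grow inwards through the layer where radial glia divide.

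The arrays detected between 10742 and 16175 probes at a detection p under 0.01. Neurosphere replicate 3 stood apart, with 16175 probes detected and a mean raw signal of 654, against 199 and 248 on the other neurosphere arrays. Replicates were most alike in radial glia (r = 0.950 to 0.968 across genes, which are not independent replicates) and least alike in LVW (r = 0.836 to 0.876). Prom1, the gene of CD133, was detected on all 12 arrays, and Cd24a, a gene of the CD24 antigen, on 4 ependymal arrays (3 LVW, 1 SC) but on no radial glia array. Against a list of 15 tested radial glia and progenitor genes, the radial glia arrays all detected 11, among them Pax6, Hes5, Hes1, Nr2e1 and Eomes. Fabp7 and Ptprz1, also on this list, were detected on none of the 3, Sox2 on 1 and Hopx on 2. Fabp7 signals there were 4.64, 5.12 and 4.62, against 8.06, 8.50 and 7.04 in neurospheres. Values are normalised signals on a log2 scale unless raw intensity is named.

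Of the 10 genes, 4 lie as adjacent pairs in the mouse genome. Kcnj8 and Abcc9, which encode the pore and the regulatory subunit of a potassium channel, are neighbours on chromosome 6, and Gucy1a1 and Gucy1b1, which encode the subunits of one enzyme, are neighbours on chromosome 3. Their promoters are printed because both members of each pair were bright in the same arrays. Each window runs from 250 bases before to 50 after the annotated start in RefSeq's GRCm38.p6, on the minus strand, at chr6:142571565-142571864, chr6:142702225-142702524, chr3:82145601-82145900 and chr3:82074662-82074961. Capitals mark the RBPJ motif TGGGAA and the GC box GGGCGG on either strand.
Kcnj8 promoter window: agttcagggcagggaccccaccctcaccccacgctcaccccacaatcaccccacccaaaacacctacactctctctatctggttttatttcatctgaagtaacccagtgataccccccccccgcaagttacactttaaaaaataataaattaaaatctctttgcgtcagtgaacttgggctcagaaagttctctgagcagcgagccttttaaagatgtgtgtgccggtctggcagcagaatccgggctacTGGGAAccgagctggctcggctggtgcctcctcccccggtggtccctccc
Abcc9 promoter window: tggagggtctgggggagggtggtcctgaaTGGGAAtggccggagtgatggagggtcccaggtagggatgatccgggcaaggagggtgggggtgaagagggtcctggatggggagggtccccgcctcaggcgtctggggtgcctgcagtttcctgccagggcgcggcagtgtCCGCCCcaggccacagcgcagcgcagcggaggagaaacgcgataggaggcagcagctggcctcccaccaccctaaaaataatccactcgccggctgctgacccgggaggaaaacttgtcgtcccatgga
Gucy1a1 promoter window: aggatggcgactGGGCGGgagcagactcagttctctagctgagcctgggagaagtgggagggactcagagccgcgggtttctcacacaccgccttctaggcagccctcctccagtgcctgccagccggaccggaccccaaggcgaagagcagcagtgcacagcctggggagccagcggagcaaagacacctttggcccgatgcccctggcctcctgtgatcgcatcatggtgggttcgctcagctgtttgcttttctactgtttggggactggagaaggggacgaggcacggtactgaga
Gucy1b1 promoter window: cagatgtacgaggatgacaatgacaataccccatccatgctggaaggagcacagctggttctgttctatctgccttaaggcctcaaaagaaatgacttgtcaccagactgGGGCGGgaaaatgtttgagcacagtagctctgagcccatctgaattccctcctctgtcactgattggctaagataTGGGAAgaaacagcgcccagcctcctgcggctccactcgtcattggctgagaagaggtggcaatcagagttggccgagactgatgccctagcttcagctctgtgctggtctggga

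RBPJ is the DNA-binding partner of the Notch receptors. Its motif begins at the start site in the Kcnj8 window, 221 bases before it in Abcc9 and 65 before it in Gucy1b1. The Gucy1a1 window above holds none, while a second annotated Gucy1a1 window holds 4. Of the 10 genes, 7 had a window, with 8 windows in all, and the RBPJ motif was in 4 of the 8. It was in 25.6% of the 32841 windows of all genes. GC boxes were in 5 of the 8 windows and in 35.7% of all. No member window held the forkhead motif TGTTTAC, which 3.65% of all windows hold, the TATA box TATAAA, held by 13.6%, or the serum response factor's CArG box, held by 1.63%. The E-box CANNTG was in 7 of the 8 windows, and 72.3% of all windows hold it. The motifs do not overlap one another in the printed windows, and a match describes letters and not a bound site.

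All 10 genes were detected on all 3 radial glia arrays, and 5 of them, Kcnj8, Abcc9, Rgs5, Higd1b and Anpep, on no other array. That pattern was met by 117 of the 9526 genes tested (1.23%). For each of the 10 genes the lowest radial glia array lay above the highest of the other 9, as for 9.66% of all genes tested. Nothing is read from these counts, since the genes were chosen for this pattern. In whole-population RNA such as this, fewer cells of a type and less RNA per cell cannot be told apart.

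**Figure D1:**
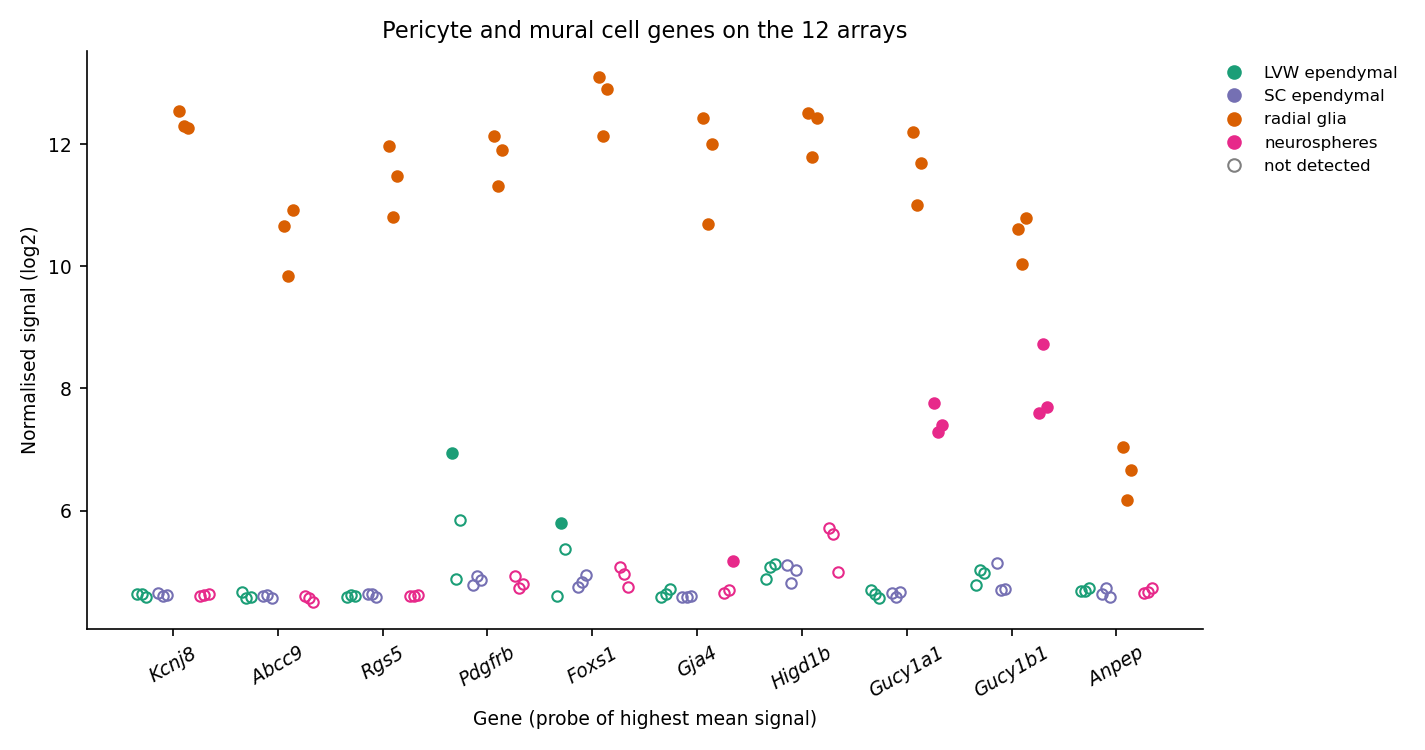
Normalised signal (log2, vertical axis) of the 10 genes on each of the 12 arrays, by the probe of highest mean; colours are groups, filled points were detected at a detection p under 0.01 and open points were not. Radial glia points lie above all others for every gene, and only Gucy1a1 and Gucy1b1 have all 3 neurosphere points filled.

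Kcnj8 encodes Kir6.1, the pore of an ATP-sensitive potassium channel that relaxes mural cells when it opens. Its raw intensity was 6473, 5528 and 5404 on the radial glia arrays and between -8.20 and -2.27 on the other 9, where it was never detected. On the log2 scale radial glia had 12.53, 12.29 and 12.26 and all other arrays lay between 4.58 and 4.64. The 3 radial glia arrays thus stood far apart from the rest and close to each other. The difference was at least 90.4-fold over LVW, 85.1-fold over SC and 104-fold over neurospheres, each a lower limit set by the weakest signal that an array could detect. Abcc9 encodes SUR2, the subunit that carries the channel's drug and nucleotide sites. It had 10.65, 9.85 and 10.92 in radial glia and between 4.50 and 4.67 elsewhere. Radial glia were at least 24.4-fold over LVW, 23-fold over SC and 28.1-fold over neurospheres.

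The 4 probes of Abcc9 did not read alike. Probe ILMN_2623859, used above, and probe ILMN_2441755 were detected on all 3 radial glia arrays, the latter at 9.91, 9.48 and 9.53. Probes ILMN_1233056 and ILMN_1253491 were detected on none of the 12 arrays, with radial glia raw intensities between -3.26 and 12.3. Both bright probes and the dark probe ILMN_1233056 are annotated to 1 transcript record, and ILMN_1253491 to another.

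Rgs5, which encodes a protein that shuts off G-protein signals and is among the most used pericyte markers, had 11.96, 10.81 and 11.48 in radial glia and 4.59 to 4.63 on the other 9 arrays. It was detected on none of those 9. Radial glia were at least 46.9-fold over LVW, 44.2-fold over SC and 54.1-fold over neurospheres. Its second probe gave the same order of arrays within radial glia with a wider spread, at 10.54, 7.24 and 9.69.

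**Figure D2:**
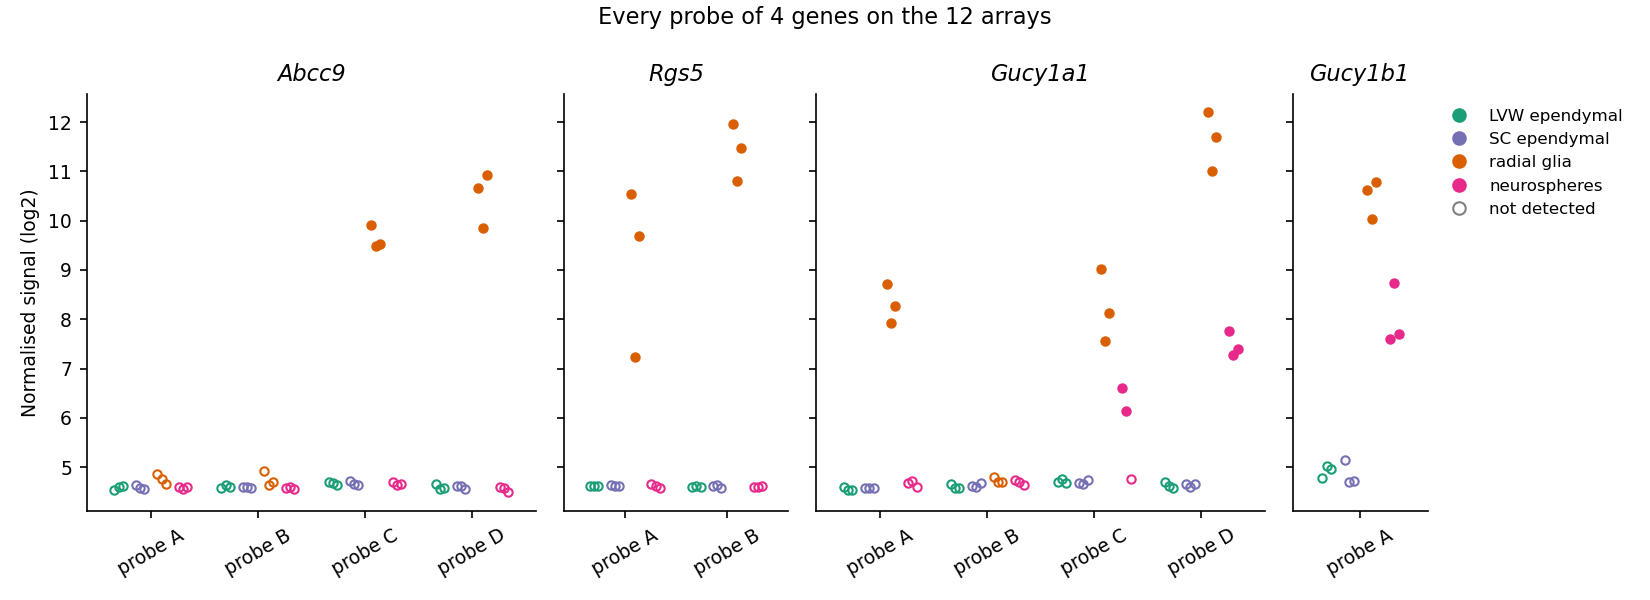
Normalised signal (log2) of every probe of Abcc9, Rgs5, Gucy1a1 and Gucy1b1 on the 12 arrays, with probes lettered in order of their identifiers, colours for groups and open points for not detected. Abcc9 probes A and B and Gucy1a1 probe B are open on all 12 arrays, and neurosphere points are filled on Gucy1a1 probes C (2 of 3) and D (3 of 3) but not on probe A.

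Pdgfrb, the receptor for PDGF-B, had 12.14, 11.32 and 11.91 in radial glia. The LVW arrays read 6.95, 4.88 and 5.84, of which the first was detected. SC read 4.78, 4.93 and 4.86, and neurospheres 4.93, 4.73 and 4.80, with none detected. The 3 LVW arrays thus spread more widely than the other groups, and 1 of them lay inside the range of SC. Radial glia exceeded LVW at least 47.9-fold, with the 2 undetected LVW arrays at their limits, SC at least 57.1-fold and neurospheres at least 70.0-fold.

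Foxs1 encodes a forkhead transcription factor. Its raw intensity in radial glia was 9981, 4972 and 8294, and its log2 signal 13.10, 12.13 and 12.90. LVW replicate 2 was the only other array to detect it, at 5.79, and the remaining 8 arrays lay between 4.60 and 5.38. Radial glia were at least 108-fold over SC and at least 132-fold over neurospheres, and at least 114-fold over LVW with its 2 undetected arrays at their limits. Gja4 encodes a connexin, a gap junction protein of mural and arterial endothelial cells. Radial glia had raw intensities of 6046, 1849 and 4494, the middle one the lowest by a wide margin. Neurosphere replicate 3, the array with the most detected probes, was the only other array to detect Gja4, at 5.17. Radial glia were at least 57.4-fold over LVW and 54.0-fold over SC, and at least 64.6-fold over neurospheres with its 2 undetected arrays at their limits.

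Higd1b, a member of the HIG1 domain family, had 12.51, 11.79 and 12.43 in radial glia. It was detected nowhere else, although neurosphere replicates 1 and 2 read 5.71 and 5.61, above the 4.81 to 5.12 of the ependymal arrays. Anpep, which encodes the cell surface peptidase CD13, had 7.04, 6.17 and 6.66 in radial glia and 4.58 to 4.74 elsewhere. Its raw intensity in radial glia was 162, 66.9 and 109, close to the weakest detectable signals, and the limits on its difference were correspondingly low. Radial glia were at least 1.69-fold over LVW, 1.59-fold over SC and 1.95-fold over neurospheres.

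The pair of guanylate cyclase genes departed from this pattern in neurospheres. Soluble guanylate cyclase, the receptor for nitric oxide in mural cells, is built from the α1 subunit encoded by Gucy1a1 and the β1 subunit encoded by Gucy1b1. Gucy1a1 had raw intensities of 5160, 2310 and 3705 in radial glia. Its log2 signal in neurospheres was 7.76, 7.28 and 7.41. It was not detected in LVW (4.70, 4.63 and 4.57) or SC (4.66, 4.59 and 4.66). Gucy1b1 had 10.61, 10.04 and 10.79 in radial glia, and 7.59, 8.73 and 7.69 in neurospheres. It was not detected in LVW (4.78, 5.02 and 4.97) or SC (5.14, 4.70 and 4.71). For both genes all 3 neurosphere arrays lay above all 6 ependymal arrays and below all 3 radial glia arrays.

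Neurospheres were set against the SC ependymal cells they were grown from. Of the 10 genes, 2 were higher in neurospheres and none was lower, where 15.5% of all genes tested were higher and 30.2% changed either way. No SC array detected any of the 10, so a lower call could hardly arise. These shares therefore do not compare like with like. Gucy1a1 rose by 2.85 ± 0.32 (SE, n = 3 per group; limma, adjusted p = 4.35e-05), at least 2.89-fold. Gucy1b1 rose by 3.15 ± 0.36 (limma, adjusted p = 4.59e-05), at least 4.15-fold. Both were higher on 3 of 3 neurosphere arrays. The other 8 were detected in neither group except Gja4 on neurosphere replicate 3, and their differences lay between -0.04 and 0.46 with none called.

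Against LVW the same 2 genes were higher in neurospheres, and none was lower, where 17.3% of all genes tested were higher and 33.7% changed either way. The comparison shares the neurosphere arrays with the one above. Of the remaining genes only Pdgfrb and Foxs1, on 1 LVW array each, and Gja4, on 1 neurosphere array, were detected in either group. Gucy1a1 was higher by 2.85 ± 0.32 (limma, adjusted p = 3.62e-05), at least 3.07-fold, and Gucy1b1 by 3.08 ± 0.36 (limma, adjusted p = 4.65e-05), at least 4.41-fold. Without neurosphere replicate 3 the differences from SC were 2.89 (limma, adjusted p = 0.000153) and 3.31 (limma, adjusted p = 0.000113). The probes of Gucy1a1 did not read alike in neurospheres. Probe ILMN_2591425, used above, was detected on all 3 arrays, probe ILMN_1241211 on replicates 1 and 2 (6.60 and 6.13) but not 3 (4.76), and probe ILMN_1228564 on none (4.68, 4.72 and 4.60). With the mean over its kept probes, Gucy1a1 differed from SC by 1.36 (limma, adjusted p = 0.00802). Probe ILMN_1233537 was detected on none of the 12 arrays. As a description, radial glia exceeded neurospheres 17.7-fold for Gucy1a1 and 5.56-fold for Gucy1b1.

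Between the ependymal groups none of the 10 genes was called, where 8.04% of all genes tested were. Apart from Pdgfrb and Foxs1, each detected on 1 LVW array, none of the 10 was detected in either group. For most of them undetected signals were compared and a call could hardly arise, so the shares of all genes are no like comparison. At an unadjusted p under 0.05 there was 1 of the 10, against 21.9% of all genes tested. It was Pdgfrb, whose SC level differed from LVW by -1.03 ± 0.45 (limma, adjusted p = 0.203, unadjusted p = 0.0406). Pdgfrb in neurospheres differed from LVW by -1.07 ± 0.45 (limma, adjusted p = 0.0859). Leaving out LVW replicate 2, the lowest of the 3, made the SC difference -1.54 (limma, adjusted p = 0.0352) and the neurosphere difference -1.58 (limma, adjusted p = 0.0105). Leaving out LVW replicate 1, the array that detected it, made the SC difference -0.50 (limma, adjusted p = 0.500). Both differences rest on which LVW arrays are used.

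Within radial glia most of the 10 genes ranked the 3 arrays alike. This is a description of the same arrays by which the genes were chosen. Replicate 2 was the lowest of the 3 arrays for 9 of the 10 genes, against 38.0% of the 7340 genes detected on all radial glia arrays. Kcnj8 was the exception, with 12.29 on replicate 2 and 12.26 on replicate 3. Replicate 1 was the highest for 8 of the 10, against 31.6%, and replicate 3 for Abcc9 and Gucy1b1. The full order of replicate 1 over 3 over 2 was met by 7 of the 10, against 21.6%. The median difference of replicate 1 from replicate 2 was 0.85 for the 10 genes and -0.03 for all 7340. Gja4 had the widest range, 3.34-fold from the lowest to the highest array, and Kcnj8 the narrowest, 1.21-fold.

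The same counts were taken for other lists, over their genes detected on all 3 radial glia arrays. Replicate 2 was lowest for 18 of 21 other mural cell genes, 8 of 9 fibroblast and meningeal genes, 6 of 12 endothelial genes, 3 of 8 ependymal genes and 4 of 11 radial glia and progenitor genes. The median difference of replicate 1 from replicate 2 was 0.84, 0.98, 0.64, -0.29 and -0.09 in these lists. The last pair, ependymal and radial glia genes, were lowest on replicate 2 about as often as all genes. Smooth muscle contractile genes were lowest there for 3 of 4, with a median difference of 0.77. Partners of the 10 genes, such as growth factors and connexins, were lowest there for 5 of 10, with -0.01. The 1 microglia and leukocyte gene was lowest there too. A red cell gene, Hba-a1 of haemoglobin, had another order, with 10.88, 7.89 and 5.05 on replicates 1, 2 and 3. The 10 genes share the arrays, and with 3 arrays no test of this pattern was made.

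**Figure D3:**
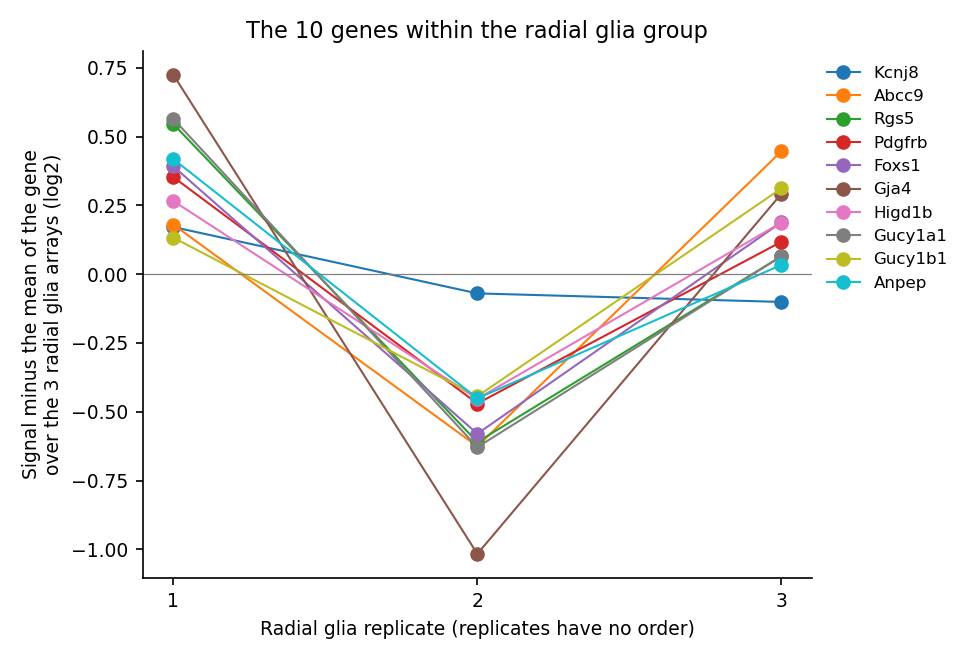
Signal of each of the 10 genes on the 3 radial glia arrays minus the mean of the gene over those arrays (log2, vertical axis); lines join the points of 1 gene and the replicates have no order. Replicate 2 is the lowest point for all genes but Kcnj8.

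A list of other mural cell genes had 34 genes on the array, of which 23 passed the detection filter. Radial glia were higher than LVW for 19 of the 23 and lower for 2, higher than SC for 19 and lower for 2, and higher than neurospheres for 18 and lower for 1. These calls are at an adjusted p under 0.05 (limma). Of all 9526 genes tested, 36.5%, 31.8% and 20.3% were called in either direction in these comparisons, 1881, 1620 and 1054 of them higher in radial glia and 1592, 1413 and 879 lower. Median differences were 3.44, 3.54 and 3.25 for this list and 0.19, 0.14 and 0.05 for all genes; with undetected values at their bounds the list had 2.23, 2.25 and 2.58. Some of the 23 passed the filter only through radial glia and so had to differ, and the counts are no support for the 10 genes.

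Vtn, which encodes the matrix protein vitronectin made by brain pericytes, had 13.86, 13.17 and 13.84 in radial glia. It was also present in SC, at 9.39, 9.28 and 10.08, and not detected in LVW or neurospheres. SC exceeded LVW by 4.93 ± 0.31 (limma, adjusted p = 1.89e-06), at least 13.2-fold. Notch3, the Notch receptor of mural cells, had 10.54, 9.10 and 10.05 in radial glia and 6.54, 6.07 and 7.31 in neurospheres, and it was not detected in LVW or SC. Neurospheres exceeded SC by 1.74 ± 0.40 (limma, adjusted p = 0.00674), at least 1.61-fold. Heyl, a target of Notch signals, was detected on the 3 radial glia arrays alone, at 10.90, 9.43 and 10.45.

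P2ry14, a receptor for UDP-sugars, was likewise detected on the radial glia arrays alone, at least 33.8-fold over LVW. Mcam, the adhesion protein CD146, was detected on all 12 arrays and was 24.3-fold over LVW, 37.7-fold over SC and 64.4-fold over neurospheres. Genes of this list that were lower in radial glia were Casq2, a calcium store protein of muscle, and Ddit4l, an inhibitor of mTOR signals. Casq2 had 11.51, 11.34 and 11.01 in LVW and was not detected in radial glia. Among the 11 that did not pass the filter, Enpep, Angpt1, S1pr3 and Atp13a5 were detected on none of the 12 arrays. Tbx18, a transcription factor of mural cells, was at 7.44, 6.07 and 6.64 in radial glia and not detected elsewhere.

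Smooth muscle contractile genes, which larger vessels carry, did not go one way. Of 15 on the array 7 were tested, and radial glia were higher than LVW for 3 and lower for 3, higher than SC for 3 and lower for 2, and higher than neurospheres for 1. Smtn, Mylk and Tpm2, which encode smoothelin, the myosin kinase and a tropomyosin, were at least 29.4-fold, 27.2-fold and 13.7-fold over LVW, where 1, 2 and 2 of 3 arrays detected them. LVW varied widely for all of them, with Smtn at 4.57, 8.14 and 5.46, Mylk at 4.84, 6.36 and 9.25, and Tpm2 at 4.64, 7.23 and 7.84. The fitted differences, which take undetected signals as they are, were 5.47 for Smtn (4.73 without LVW replicate 1, 6.52 without LVW replicate 2), 5.13 for Mylk (4.14 without LVW replicate 1, 6.34 without LVW replicate 3) and 4.20 for Tpm2 (3.23 without LVW replicate 1, 4.84 without LVW replicate 3), and each remained called. Acta2, smooth muscle actin, was 4.48-fold lower in radial glia than in LVW and was present in every group, at 12.05 ± 0.32 (SD, n = 3) in radial glia and 14.21 ± 0.21 in LVW. Myh11, Des and Cnn1, which are on this list and were not tested, were detected on none of the radial glia arrays. Elsewhere only Myh11 was detected, on 1 neurosphere array. Among other untested genes, Actg2 was detected on 2 radial glia arrays alone, and Cald1 on 1 array each of radial glia, LVW and neurospheres. With median scaling in place of quantile normalisation, the count lower than SC was 0 and not 2.

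The partners of the 10 genes were read next: growth factors, channel subunits, nitric oxide synthases, kinases and connexins. Of 22 on the array 15 were tested, and 3, 3 and 4 were higher in radial glia than in LVW, SC and neurospheres, and 1, 2 and 3 lower. Mrvi1 and Gucy1b2 passed the detection filter only through radial glia. Pdgfb, the growth factor itself, was detected in radial glia at 6.59, 7.42 and 7.45 and in LVW at 7.25, 8.83 and 7.56, but on no neurosphere array. Pdgfra, the sister receptor, had 6.74, 6.48 and 7.35 in radial glia and was not called in any of the 6 comparisons. Kcnj11, which encodes the other pore of this channel family, was detected on no array, and Nos1 and Nos2, synthases of nitric oxide, on none either. Nos3, another such synthase, was detected on 2 LVW and 2 SC arrays and on no radial glia or neurosphere array.

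Mrvi1, a substrate of cGMP-dependent kinase in smooth muscle, was at least 17.1-fold over LVW, at 10.64, 8.84 and 10.42 in radial glia. Without background correction its difference from LVW was 0.42 and from SC -0.45 (limma, adjusted p = 0.648 and 0.645). The probe of highest mean, which stands for a gene, can differ between settings, and the probes of Mrvi1 were not compared. Prkg1, that kinase, was detected on all 12 arrays, and neurospheres exceeded SC by 1.04 ± 0.30 (limma, adjusted p = 0.0209). Gjc1, a connexin of smooth muscle, was 6.12-fold over LVW, and Gja1, the main connexin of astrocytes, was lower in radial glia than in LVW (log2 difference -3.58 ± 0.30, limma, adjusted p = 3.26e-06). Gucy1b2, a further cyclase subunit, was at least 3.62-fold over LVW, where 1 array detected it, with its highest radial glia value on replicate 2 (7.05, 8.44 and 7.74). With median scaling the counts lower than SC and neurospheres were 1 and 1.

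Markers of other cells of the vessel and the brain surface are given beside these results, and their part in them was not tested. Some genes of these lists passed the detection filter only through radial glia, so the counts are descriptions. Of 25 endothelial genes on the array 16 were tested, and radial glia were higher than LVW for 6 and lower for 4, higher than SC for 9 and lower for 3, and higher than neurospheres for 7 and lower for none. Their summed raw intensity was 11190 to 18764 in radial glia, 12527 to 16524 in LVW, 5714 to 6071 in SC and 1024 to 8663 in neurospheres. The endothelial genes Pecam1, Cdh5, Tie1, Erg and Sox17 were detected on none of the radial glia arrays, and elsewhere only Pecam1 was, on 1 SC array. Of the 16 tested, 12 were detected on all 3 radial glia arrays, among them Kdr, Flt1, Flt4, Eng, Egfl7 and Ptprb. Esam and Emcn, which are also endothelial, were bright there, at 12.75, 11.95 and 12.61 and at 12.11, 11.07 and 11.52. With median scaling, the counts lower than LVW and SC were 2 and 1.

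Of 18 fibroblast and meningeal genes 9 were tested, and radial glia were higher than LVW for 7, than SC for 6 and than neurospheres for 8, and lower for none. Of all 9526 genes tested, 1881, 1620 and 1054 were higher in radial glia. Col3a1, Col6a1, Twist1, Pcolce, Mgp and Col1a2 passed the detection filter only through radial glia, so the counts are descriptions. The summed raw intensity of the 9 genes was 2151 to 5195 in radial glia, 131 to 226 in LVW, 236 to 387 in SC and 70.9 to 514 in neurospheres. Col3a1 was at 9.65, 8.99 and 9.35 in radial glia and not detected elsewhere, while Col1a1 and Lum were detected on none of the 12 arrays. Other genes of the list were not particular to radial glia. Dcn was detected on all 3 SC arrays, with a mean of 8.18 there and 8.06 in radial glia. Col1a2 was detected on 2 LVW arrays, with a mean of 6.35 in LVW and 6.61 in radial glia. Of 15 microglia and leukocyte genes 3 were tested, and radial glia were higher than LVW for 1 and lower for 1, higher than SC for 1 and lower for 2, and higher than neurospheres for 1. Coro1a, an actin-binding protein of leukocytes, was the higher one, detected on all 3 radial glia arrays at 7.97, 7.68 and 7.78. Laptm5, a lysosomal protein of blood cells, was lower in radial glia (7.25, 4.78 and 7.68) than in LVW (11.71, 12.46 and 11.54) and in SC (11.43, 11.83 and 11.28). C1qb, a complement subunit, was detected on all 3 SC arrays and on none of the radial glia arrays. Aif1, Cx3cr1, Tyrobp and Ptprc were detected on none of the 12. Ependymal genes were lower in radial glia than in LVW for 11 of 11 tested and than in SC for 9. They were higher in radial glia than in neurospheres for 6 and lower for none. Their summed raw intensity was 1908 to 4663 in radial glia and 71290 to 76642 in LVW. Of the 11, 8 were detected on all 3 radial glia arrays. Red cell genes had 2 of 5 tested, and none was called in any comparison.

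**Figure D4:**
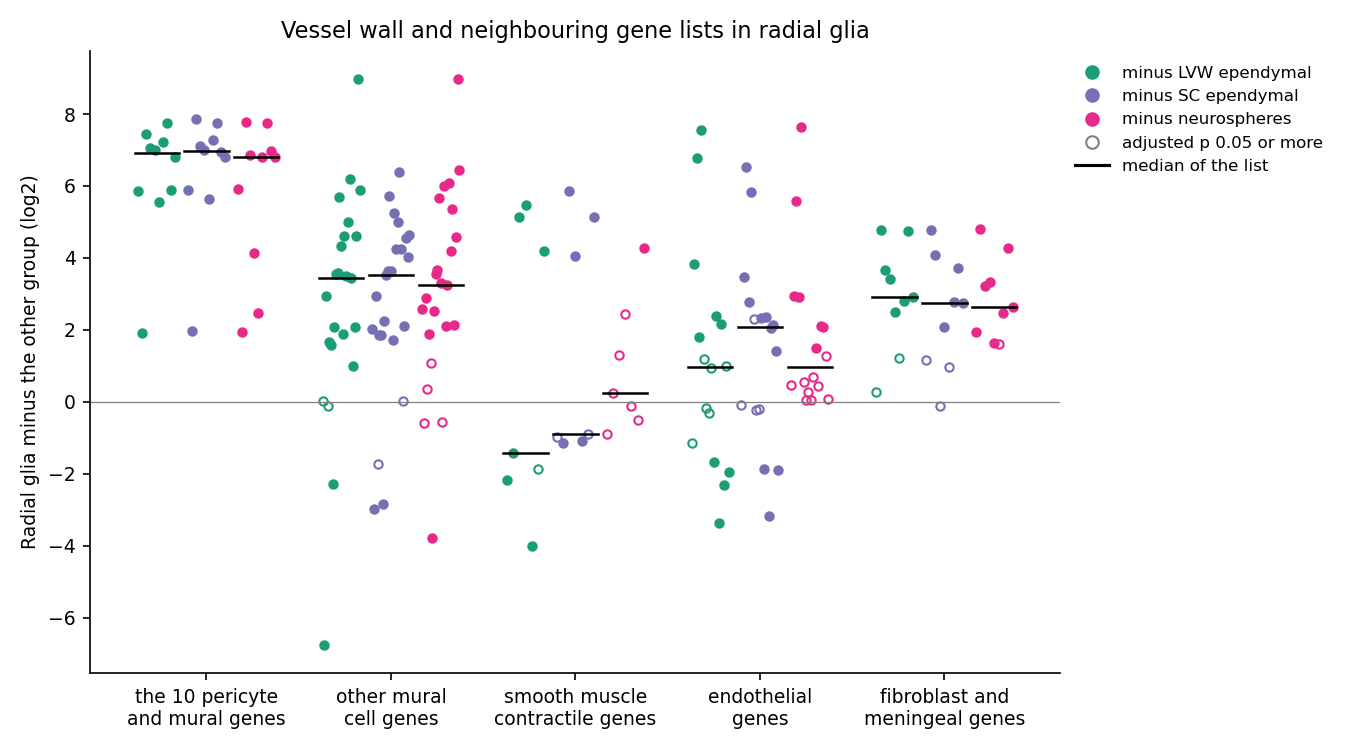
Log2 difference of radial glia from each of the other 3 groups for the tested genes of 5 lists; each point is a gene, colours give the other group, open points have an adjusted p of 0.05 or more and bars are list medians. The 10 genes were chosen for their high radial glia signals, so the fill of their points is no test. The 10 genes and most other mural cell genes lie above 0, while smooth muscle and endothelial genes lie on both sides.

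Genes whose profile was most like that of the 10 were found by the Pearson correlation, over the 12 arrays, with the mean of the 10 genes. It is a description, since 4 groups set most of it, and 43 genes had r over 0.99. The closest were P2ry14 and Bgn (r = 0.997 each), followed by Alx4, Il1rl2, Pla1a, Dbx1, Pcdh12, Heyl, Col3a1 and BC028528 (r = 0.995 each). Bgn encodes the matrix proteoglycan biglycan and had 11.96 ± 0.44 (SD, n = 3) in radial glia. Dbx1, a transcription factor of neural progenitors, had 9.89 ± 0.28. All 10 were detected on all 3 radial glia arrays, and on no other array except BC028528 on 1 neurosphere array.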

How the data were processed

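Per the labels' protocols, total RNA went through 2 amplification rounds and biotin labelling. The submitters' processing notes name BeadStudio and lumi. The deposited raw table holds, per the file headers, an intensity and a detection p-value for each of 46632 probes on each array; some intensities are below 0. A second table holds the authors' own processed log2 values. The raw intensities were background corrected and quantile normalised with limma 3.58.1 (neqc, offset 16, with controls read back from the detection p-values) in R 4.3.3. Probes with a detection p under 0.01 on at least 3 of 12 arrays were kept (15760), and the kept probe of highest mean stood for its gene, leaving 9526 genes. Of the probes, 29976 had 1 symbol in the platform annotation, 10 several and 16646 none. One linear model of 4 groups was fitted (lmFit, eBayes, two-sided), with Benjamini-Hochberg adjustment over all genes tested and a threshold of 0.05. Where a group did not detect a gene on all of its arrays, the fold given is a bound: the higher group's mean against, on each array, the larger of the probe's signal and the lowest detected one. The number of arrays limits the precision.

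The 10 genes and all lists were chosen with earlier results of these data known. Of each list up to 4 called genes in each direction were to be named, with the 10 genes closest in profile; list genes below detection, Tbx18, Pdgfra and Hba-a1 were named after their values were seen. The method was tested on simulated data. Alternatives covered background correction, normalisation, the authors' values, probe filters, the mean over probes, weighting of arrays, a replicate block, a fit to the 6 arrays of a comparison and leaving out 1 array at a time.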

Additional observations from a re-analysis of the deposited data

How the results depend on the processing

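The count of the 10 genes called kept its value, within 1.5 times, under all alternatives run, with 1 exception. Between SC and LVW the count was 0, and leaving out 1 array gave 0 to 1, the 1 being Pdgfrb without LVW replicate 2. Radial glia against neurospheres gave 9 and not 10 without background correction, and neurospheres against LVW gave 3 and not 2 without background correction or LVW replicate 2. The third gene there was Pdgfrb (adjusted p = 0.0337 and 0.0105, limma). Over 23 alternatives Gucy1a1 in neurospheres minus SC lay between 1.23 and 7.22 (highest adjusted p = 0.00802, limma) and Gucy1b1 between 1.49 and 6.49 (highest adjusted p = 0.0022, limma). The counts for radial glia were fixed by the choice of genes. The median difference of the 10 genes between radial glia and LVW was 6.91, and it was 4.74 in the authors' table, 5.54 with normexp without controls at an offset of 50, and 9.89 without background correction; the first of these differs in its whole processing and the next in both controls and offset. Mrvi1 in radial glia minus SC reversed without background correction, from 5.19 to -0.45 (adjusted p = 0.645, limma). The probe that stands for a gene can differ between settings, and whether it did so for Mrvi1 was not tested. Median scaling moved the median of all genes from 0.14 to 0.80 in radial glia minus SC, from 0.19 to 0.57 in radial glia minus LVW, from 0.05 to -0.18 in SC minus LVW and from 0.08 to 0.49 in neurospheres minus SC. No label ties equal replicate numbers across groups, and same-numbered arrays correlated between -0.23 and 0.32 in their deviations from the group means; with the replicate number as a block the 6 counts were 10, 10, 10, 0, 2 and 2. The median SD within a group was 0.59 in LVW and 0.32 in radial glia, so the shared spread can make p-values with LVW too small. Signals below detection bound the folds but not the levels.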
